A study of Mus musculus with 12 samples.

Results

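A group of 10 genes of cell adhesion and of the switch between epithelial and mesenchymal cells were followed from mouse embryonic stem cells (ESCs) to epiblast-like cells (EpiLCs). They are the cadherins Cdh1, Cdh2 and Cdh3, the catenin gene Ctnna1, the epithelial surface genes Epcam and Cldn6, the intermediate filament gene Vim, and the repressor genes Snai1, Zeb1 and Zeb2. They were chosen by symbol, and all 10 were found among the 22462 genes of the counts table. In EpiLCs the RNA of Cldn6, Epcam and Cdh3 was higher, that of Zeb1 was lower, and Cdh1 stayed the leading cadherin with a small increase. Vim RNA was moderately lower, and like Cdh1 it passed the p limit but not the fold limit. Ribosome footprints moved the same way for each of these 6 genes, and no member passed the test for a change in translational efficiency.

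Classical cadherins are calcium-dependent adhesion receptors that bind the same cadherin on a neighbouring cell and are tied to actin through beta-catenin and alpha-catenin. In an epithelial-mesenchymal transition, repressors of the Snail and Zeb families bind E-boxes, short DNA motifs, and silence Cdh1 and other epithelial genes, while vimentin and N-cadherin rise. Pluripotent epiblast is itself an epithelium that expresses E-cadherin, and cells leave it through such a transition at the primitive streak.

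The study asked whether translation changes along with RNA levels as ESCs turn into EpiLCs. Total RNA and ribosome protected fragments (RPFs), stretches of mRNA that a ribosome covers and keeps from nuclease, were sequenced with the TruSeq Ribosome Profiling kit, with 3 libraries for each cell type and assay and 12 in all. ESCs were cultured in Knockout DMEM, 15% fetal bovine serum, LIF and the 2i inhibitors PD0325901 and CHIR99021. For EpiLCs, the same cells were plated for 24 hours, washed, and collected about 56 hours after LIF and 2i were taken away. According to the study's methods, the cells used for this differentiation were a single V6.5 line with reporters for a pair of microRNA loci, which both groups carry. The study speaks of biological replicates without saying whether the numbered libraries came from separate cultures, and the labels do not say so either. The p-values measure the spread between these libraries. In such bulk samples, fewer cells of a type and less RNA per cell cannot be told apart.

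Total counts were 6188838 to 14655015 in the total RNA libraries and 2681439 to 11359352 in the RPF libraries, so that RPF values of low genes were the least precise. The labels were checked against marker genes: all 8 naive markers were lower and all 6 formative and primed markers higher in EpiLCs, in both assays. Of these, the naive marker Prdm14 and the formative and primed markers Fgf5 and Sox3 are no support for the check. They reached the level for testing, given below, in fewer than 3 libraries of one cell type and had to differ. ESC total RNA replicate 2 stood somewhat apart. The summed level of the 6 formative and primed markers was 269 CPM (counts relative to the library total, with scaling between libraries) there, against 170 and 201 CPM in the other ESC total RNA libraries. Its sum of the 8 naive markers was 1684 CPM, against 1895 and 1910 CPM. Values that moved by over 1.5 times without it, and the changes of the members highest in it, are also given without it.

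The counted sequence was coding sequence only, so levels are compared between genes as CPM per kb of that sequence. In ESC total RNA, Cdh1 was the most abundant member, with 394 ± 13.3 CPM per kb (SD, n = 3 here and below), followed by Ctnna1 with 324 ± 4.60. Vim (133 ± 9.92) and Epcam (132 ± 19.6 CPM per kb) came next and did not differ beyond their spread. The same held for Cdh3 (16.4 ± 2.84) and Cldn6 (15.4 ± 4.01 CPM per kb), which were below the median of the 11750 tested genes, 21.8 CPM per kb. Zeb1, Cdh2, Snai1 and Zeb2 closed the order, with means of 8.40, 2.07, 0.464 and 0.0491 CPM per kb.

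The order differed in EpiLC total RNA. Epcam headed it with 643 ± 23.1 CPM per kb, above Cdh1 with 509 ± 41.9 and Ctnna1 with 267 ± 12.1. Cldn6 followed with 144 ± 22.2 CPM per kb, above Vim (73.3 ± 6.26) and Cdh3 (72.0 ± 4.86), which overlapped. The 4 lowest members were Cdh2, Zeb1, Zeb2 and Snai1, with means of 3.33, 0.750, 0.529 and 0.250 CPM per kb. In the RPF libraries Cdh1 led in ESCs (774 ± 40.4 CPM per kb) and Epcam in EpiLCs (1315 ± 47.1 CPM per kb), where Cdh1 had 1052 ± 20.4.

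**Figure D1:**
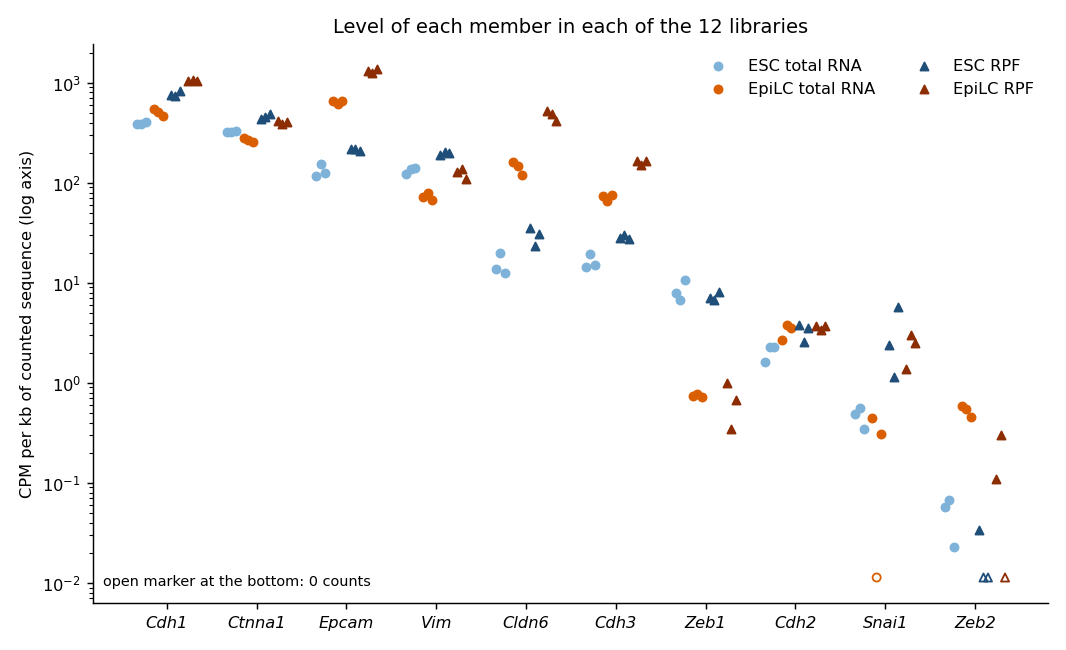
Level of each of the 10 genes in each of the 12 libraries, as CPM per kb of counted coding sequence on a log axis; circles are total RNA and triangles RPF, light and dark blue ESCs, orange and brown EpiLCs, and open markers at the bottom are libraries with 0 counts. Epcam, Cldn6 and Cdh3 were higher and Zeb1 lower in every EpiLC library than in any ESC library of the same assay. The RPF values of Cdh2 and Zeb2 and both assays of Snai1 overlap between the cell types.

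Tests came from a voom and limma fit over the 11750 genes that reached 3 CPM in at least 3 libraries, and a call required both an adjusted p under 0.05 and a log2 fold change (EpiLC over ESC) beyond 1 in either direction. This level was reached by 8 members, and Snai1 and Zeb2 fell below it. Of the 8, Cdh3, Epcam and Cldn6 were called higher and Zeb1 lower in total RNA, and the same 4 genes in RPF. Over all tested genes, 14.6% were called higher and 9.7% lower in total RNA, and 15.4% and 10.6% in RPF. The median log2 fold change of the 8 was 0.50 in total RNA and 0.27 in RPF, against 0.03 and 0.01 over all tested genes. Zeb1 reached the level for testing in all 6 ESC libraries and in 1 EpiLC library, so it entered the test through the cell type in which it is high and had to differ.

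**Figure D2:**
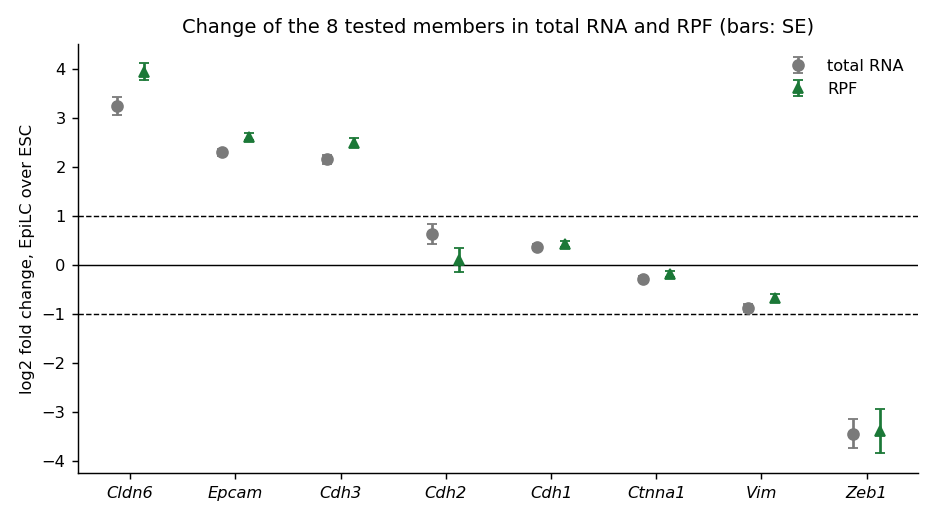
Log2 fold change (EpiLC over ESC) of the 8 tested genes in total RNA (circles) and RPF (triangles), with SE bars and dashed lines at the fold limit of 1 in each direction. Cldn6, Epcam and Cdh3 lie above the upper line and Zeb1 below the lower one in both assays, and the other 4 lie between the lines.

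Cdh1 (ENSMUSG00000000303.12, chromosome 8, 106603540 to 106668615, mm10) encodes E-cadherin, the main cadherin of epithelia and of pluripotent cells. Its total RNA was 1004, 1016 and 1069 CPM in ESCs and 1438, 1331 and 1219 CPM in EpiLCs. Every EpiLC library lay above every ESC library, but the rise was small. On the log2 scale the rise was 0.38 ± 0.05 (SE; adjusted p 9.84e-07 by limma), or 1.30-fold, a change that passed the p limit and not the fold limit. Its RPFs were 1974, 1946 and 2141 CPM in ESCs and 2739, 2802 and 2696 CPM in EpiLCs, again without overlap. The RPF change was 0.43 ± 0.05 on the log2 scale (limma adjusted p 1.26e-07). Cdh1 stood at the 98.2th percentile of the tested genes in ESC total RNA and at the 99.1th in EpiLC total RNA, per kb.

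Cdh3 (ENSMUSG00000061048.8, chromosome 8, 106511004 to 106555450, mm10) encodes P-cadherin, first described in placenta, and lies next to Cdh1 on the same strand. The genes share no counted bases. Its total RNA was 35.1, 47.6 and 36.4 CPM in ESCs and 179, 161 and 184 CPM in EpiLCs, and ESC replicate 2 was the highest of the ESC libraries. The log2 fold change was 2.16 ± 0.09 (limma adjusted p 3.89e-16), and 2.29 without ESC total RNA replicate 2. Its RPFs rose from 68.3, 73.4 and 66.3 CPM to 402, 364 and 396 CPM, or by 2.5 ± 0.09 in log2 units (adjusted p 4.05e-17 by limma). In total RNA Cdh3 moved from the 42.4th to the 81.0th percentile of tested genes per kb.

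Cdh2 (ENSMUSG00000024304.14, chromosome 18, 16590147 to 16808349, mm10) encodes N-cadherin, the cadherin of neural and many mesenchymal cells. It was scarce in both cell types, with 59, 73 and 72 counts in ESC total RNA and 107, 63 and 83 counts in EpiLC total RNA. In CPM this was 4.30, 6.15 and 6.17 in ESCs and 7.14, 10.1 and 9.51 in EpiLCs. The total RNA groups did not overlap, and the log2 fold change was 0.63 ± 0.20 (limma adjusted p 0.00877), within the fold limit. Without ESC total RNA replicate 1 it was 0.44 (limma adjusted p 0.0875). The RPFs overlapped, with 10.3, 6.81 and 9.54 CPM in ESCs and 9.95, 9.13 and 9.95 CPM in EpiLCs. Their log2 fold change of 0.11 ± 0.25 did not pass the test (limma adjusted p 0.730).

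The make-up of the 3 cadherins within each library does not depend on scaling between libraries. Per kb, Cdh1 took 96.0%, 94.7% and 95.9% of their sum in ESC total RNA and 87.8%, 87.9% and 85.5% in EpiLC total RNA. The means were 95.5% ± 0.753 and 87.1% ± 1.37, a difference of -8.47 percentage points. In RPF the Cdh1 share was 96.0% ± 0.302 in ESCs and 86.6% ± 0.821 in EpiLCs, a difference of -9.48 percentage points. Cdh3 held most of the remainder, with 3.97% ± 0.703 and 12.4% ± 1.31 of total RNA and 3.56% ± 0.337 and 13.2% ± 0.804 of RPF. In the exact 2-sided permutation test each Cdh1 comparison gave p = 0.1, the smallest that 3 libraries against 3 allow, so the design cannot reach 0.05.

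**Figure D3:**
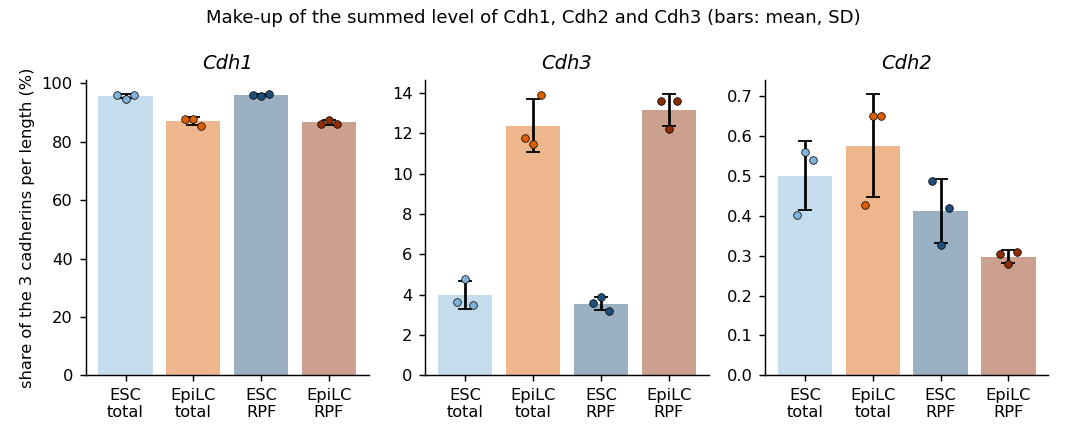
Share (%) of Cdh1, Cdh3 and Cdh2 in the sum of the 3 per kb, in the 4 groups; bars are means, error bars SD over 3 libraries, points single libraries, and the vertical scale differs between panels. The Cdh1 share was lower and the Cdh3 share higher in every EpiLC library than in any ESC library. The Cdh2 share lay between 0.278% and 0.650% throughout. It overlapped between the cell types in total RNA, and in RPF it was lower in every EpiLC library than in any ESC library.

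The ratio of Cdh1 to Cdh2 per kb was 195 ± 38.3 in ESC total RNA and 158 ± 42.2 in EpiLC total RNA, and the libraries overlapped. In RPF it was 240 ± 48.7 and 292 ± 20.2, also with overlap. The lowest ratio of any library was 131, in EpiLC total RNA. The ratio of Cdh3 to Cdh2 was 8.02 ± 1.34 in ESC total RNA and 22.2 ± 5.04 in EpiLC total RNA.

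Ctnna1 (ENSMUSG00000037815.6, chromosome 18, 35152648 to 35253892, mm10) encodes alpha-catenin, which links the cadherin and beta-catenin complex to actin. Its total RNA was 859, 861 and 881 CPM in ESCs and 748, 713 and 683 CPM in EpiLCs. The groups did not overlap and the change was small, with a log2 fold change of -0.27 ± 0.05 in total RNA (adjusted p 2.82e-05 by limma) and -0.18 ± 0.05 in RPF (adjusted p 0.00517). Relative to Cdh1, per kb, Ctnna1 was 0.822 ± 0.0158 in ESC total RNA and 0.525 ± 0.0199 in EpiLC total RNA. The same ratio in RPF was 0.589 ± 0.0148 and 0.384 ± 0.0167.

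Epcam (ENSMUSG00000045394.8, chromosome 17, 87636864 to 87650469, mm10) encodes an epithelial cell adhesion molecule of the cell surface that is also expressed by pluripotent cells. Its total RNA was 105, 139 and 113 CPM in ESCs and 588, 557 and 596 CPM in EpiLCs, with the highest ESC value again in replicate 2. The log2 fold change was 2.30 ± 0.07 (limma adjusted p 1.23e-18), and 2.42 without ESC total RNA replicate 2. The RPFs were 196, 195 and 188 CPM in ESCs and 1188, 1145 and 1230 CPM in EpiLCs, closer together than in ESC total RNA. Their log2 fold change was 2.63 ± 0.07 (limma adjusted p 4.20e-19). Epcam and Vim had nearly equal total RNA per kb in ESCs, with a ratio of 0.991 ± 0.112, whereas in EpiLCs the ratio was 8.83 ± 1.05.

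Cldn6 (ENSMUSG00000023906.2, chromosome 17, 23681109 to 23681723, mm10) encodes a claudin, a tight junction protein found mainly in embryonic epithelia and pluripotent cells. It showed the largest rise of the 8 tested members. Its total RNA was 8.46, 12.3 and 7.72 CPM in ESCs and 100.4, 91.2 and 73.5 CPM in EpiLCs, a rise of 3.25 ± 0.18 in log2 units (adjusted p 5.77e-14 by limma). Without ESC total RNA replicate 2, which held the highest ESC value, it was 3.44. In RPF, Cldn6 went from 21.5, 14.3 and 19.0 CPM to 323, 300.4 and 254 CPM. This is a 15.5-fold rise, or 3.95 ± 0.17 in log2 units (adjusted p 6.29e-16 by limma). Cdh3, Epcam and Cldn6 thus all had their highest ESC total RNA value in the library with the highest sum of formative and primed markers, and the calls of all 3 stood without it.

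The promoters of Epcam and Cldn6 are shown because both genes rose and because the E-box is the motif that Snail and Zeb repressors bind. The RefSeq promoter windows (GRCm38.p6, 250 bases before to 50 after the start of a gene) were searched for CACCTG and its reverse complement CAGGTG, which covers both strands. Windows were at hand for 5 of the 10 members, Epcam, Cldn6, Vim, Snai1 and Zeb2. In each 30-base stretch below, read 5′ to 3′ on the plus strand, which is the strand of the gene, the capitals mark the E-box.
Epcam, 187 bases before the start, chr17:87635780-87635809: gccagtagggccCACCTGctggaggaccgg
Epcam, 19 bases before the start, chr17:87635948-87635977: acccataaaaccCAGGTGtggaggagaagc
Cldn6, 93 bases before the start, chr17:23679260-23679289: gggaaacgcacgCAGGTGgctatcgccgca
Cldn6, 40 bases after the start, chr17:23679385-23679414: aatcttagcagtctcttttgCAGGTGagcc
Snai1, 126 bases before the start, chr2:167538057-167538086: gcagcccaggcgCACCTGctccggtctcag
The Epcam and Cldn6 windows each held 2 E-boxes and that of Snai1 held 1, whereas those of Vim (1 window) and Zeb2 (4 windows) held none. Of all 32851 promoter windows, 20.2% held at least 1 and 2.88% at least 2. A match describes the letters in the window and does not show binding, and a link between E-boxes and the changes was not tested.

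Vim (ENSMUSG00000026728.9, chromosome 2, 13574477 to 13582514, mm10) encodes vimentin, the intermediate filament protein of mesenchymal cells that many cultured cells also express. Its total RNA was 165, 187 and 189 CPM in ESCs and 98.8, 108 and 91.2 CPM in EpiLCs. All EpiLC libraries lay below all ESC libraries. The log2 fold change was -0.86 ± 0.08 (limma adjusted p 7.51e-10), which is 1.82-fold lower in EpiLCs and within the fold limit. RPFs went from 255, 273 and 267 CPM to 174, 188 and 149 CPM, a change of -0.66 ± 0.08 in log2 units (adjusted p 2.74e-07 by limma). Vim remained a well expressed gene, at the 81.4th percentile of tested genes per kb in EpiLC total RNA.

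Zeb1 (ENSMUSG00000024238.13, chromosome 18, 5591955 to 5773066, mm10) encodes a zinc finger and homeobox repressor of epithelial genes. Its counts were 359, 262 and 410 in ESC total RNA and 37, 16 and 21 in EpiLC total RNA. In CPM the levels were 26.2, 22.1 and 35.2 in ESCs and 2.47, 2.56 and 2.41 in EpiLCs, far apart. The log2 fold change was -3.43 ± 0.30 (limma adjusted p 2.67e-10), or 10.8-fold lower in EpiLCs. The RPFs fell in parallel, from 23.5, 22.1 and 27.0 CPM to 3.32, 1.1 and 2.25 CPM, a change of -3.39 ± 0.45 in log2 units (adjusted p 5.69e-07 by limma). The EpiLC RPF values rest on 16, 3 and 12 counts.

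Zeb2 (ENSMUSG00000026872.17, chromosome 2, 44987988 to 45110365, mm10), the paralog of Zeb1, was close to the detection limit. It had 3, 3 and 1 counts in ESC total RNA and 33, 13 and 15 in EpiLC total RNA. All EpiLC libraries were above all ESC libraries, opposite in direction to Zeb1. Summed over libraries and divided by their totals, the EpiLC level was 10.8 times the ESC level, with an exact 95% interval of 4.95 to 28.1 that covers counting error only. In RPF it had 1, 0 and 0 counts in ESCs and 2, 3 and 0 in EpiLCs, at or under a floor of 3 counts per library in both cell types, so no fold is given. In EpiLC total RNA, where Zeb2 could be counted, the ratio of Zeb1 to Zeb2 per kb was 1.28, 1.41 and 1.60.

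Snai1 (ENSMUSG00000042821.7, chromosome 2, 167538335 to 167542083, mm10) encodes Snail, the repressor first linked to silencing of Cdh1. It had 5, 5 and 3 counts in ESC total RNA and 5, 0 and 2 in EpiLC total RNA. In RPF it had 14, 4 and 47 counts in ESCs and 5, 6 and 10 in EpiLCs, and the groups overlapped in both assays. The EpiLC over ESC ratio of summed counts was 0.670 in total RNA (exact 95% interval 0.226 to 1.81) and 0.604 in RPF (0.351 to 1.00), with intervals of counting error only. ESC RPF replicate 3 held 47 of the 65 ESC RPF counts. Without it the RPF ratio was 1.16 (0.587 to 2.30), on the other side of 1, so that no direction can be read for Snai1.

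Translational efficiency (TE) is the ratio of RPF to total RNA, and its change was tested as the interaction of assay and cell type. None of the 8 tested members was called, against 0.255% of all tested genes, and none had a limma adjusted p below 0.05. An unadjusted p below 0.05 was found for 3 of them. These were Epcam, whose TE was higher by 0.32 ± 0.10 in log2 units (limma adjusted p 0.113), Cldn6 with 0.70 ± 0.25 (limma adjusted p 0.178) and Cdh3 with 0.34 ± 0.13 (limma adjusted p 0.218). For these 3 genes the RPF rise was larger than the total RNA rise. Without ESC total RNA replicate 2 their TE changes were 0.21, 0.51 and 0.21.

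The other TE changes were 0.06 ± 0.07 for Cdh1, 0.10 ± 0.07 for Ctnna1, 0.20 ± 0.12 for Vim, 0.05 ± 0.54 for Zeb1 and -0.53 ± 0.32 for Cdh2 on the log2 scale. The SE was largest for Zeb1 and Cdh2, the tested members with the fewest counts, so that changes of this size were not detectable for them. TE levels were high for most members. Cdh1 had a TE of 2.00 times that of the median gene in ESCs and 2.08 times in EpiLCs, at the 91.4th and 91.2th percentile of tested genes. Cldn6 stood at the 92.0th and 97.9th percentile, Cdh3 at the 87.4th and 93.0th, and Epcam at the 84.3th and 91.1th. Zeb1 was near the median gene, at the 44.1th and 46.5th percentile.

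**Figure D4:**
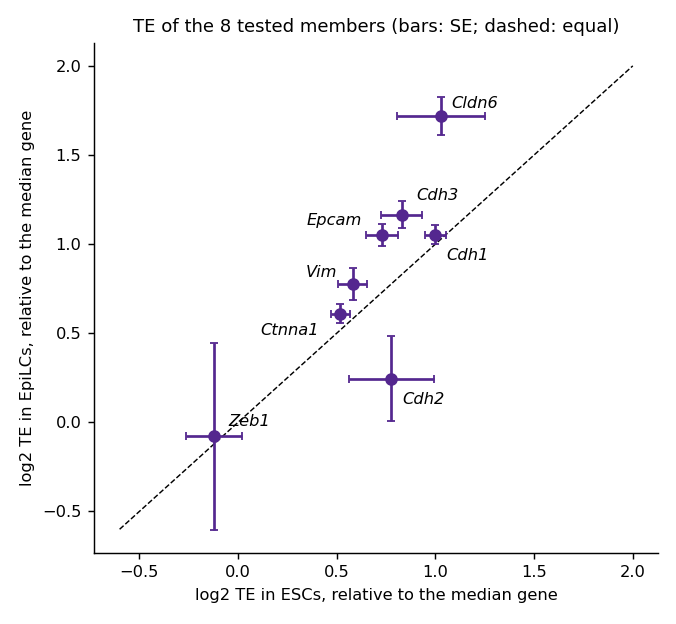
Log2 TE of the 8 tested genes in ESCs (horizontal) and EpiLCs (vertical), each relative to the median tested gene, with SE bars and a dashed line of equal values. Of the 8 genes, 7 lie above the median gene in both cell types, Zeb1 lies just below it, and Cldn6, Cdh3 and Epcam lie farthest above the line of equal values.

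Of the 2 members that were not tested, Snai1 had few total RNA reads for its footprints. Its summed RPF over total RNA, per library total, was 7.56 in ESCs (exact 95% interval 4.13 to 15.0) and 6.82 in EpiLCs (2.79 to 19.0). Without ESC RPF replicate 3 the ESC ratio was 3.95 (1.83 to 8.76). Zeb2 had the opposite balance in EpiLCs, with 5 RPF counts for 61 total RNA counts and a ratio of 0.186 (0.0584 to 0.459). These intervals cover counting error only.

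Other genes of the same structures were counted by lists, with the shares of all tested genes above as background. Of the genes named from them, Cdh9, Cdh10, Marveld3, Krt7, Krt19, Snai3, Twist1, Grhl2 and Grhl3 reached the level for testing in fewer than 3 libraries of one cell type. They entered the test through the cell type in which they are high and had to differ, so their calls are no support for the counts. Of 19 further cadherins 4 reached the level for testing, of which 3 were higher in EpiLC total RNA. Cdh9 and Cdh10, cadherins best known from the nervous system, went from 0.402 to 6.59 CPM and from 0.473 to 6.29 CPM in total RNA. Cdh24 rose from 6.75 to 16.9 CPM. In RPF 2 of the 4 were higher. Among adherens junction partners 3 of 10 tested were higher and 0 lower in either assay, namely Nectin2, Nectin3 and the actin linker Vcl, with log2 fold changes of 1.41, 1.26 and 1.25 in total RNA.

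Tight junction genes other than Cldn6 gave 5 higher and 0 lower of 12 tested in each assay, with a median log2 fold change of 0.86 in total RNA. The claudins Cldn7 and Cldn3 rose from 12.1 to 108 CPM and from 4.73 to 23.1 CPM in total RNA, and the junction proteins Marveld3 and Cgn rose by 2.98 and 2.36 on the log2 scale. Desmosome and keratin genes gave 7 higher and 1 lower of 11 tested in each assay. Krt18, a keratin of simple epithelia, rose from 38.8 to 308 CPM and the plakophilin gene Pkp2 from 40.04 to 175 CPM in total RNA. Krt19 and Krt7 also rose, by 2.51 and 2.15 on the log2 scale, to 13.5 and 6.72 CPM. The gene that fell was Dsg2, a desmosomal cadherin, which went from 209 to 94.1 CPM in total RNA (adjusted p 6.76e-12 by limma).

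Regulators of the epithelial-mesenchymal switch gave 5 higher and 1 lower of 12 tested in total RNA, and 6 and 1 in RPF. Esrp1, a splicing factor of epithelial cells, had 10.8 CPM in ESC and 169 CPM in EpiLC total RNA, and 4.91 and 186 CPM in RPF. Of its ESC total RNA counts, 67, 218 and 105, replicate 2 held the most, and without it the ESC mean was 6.94 CPM. Grhl2, a transcription factor that activates epithelial genes including Cdh1, rose from 3.55 to 43.6 CPM in total RNA, by 3.71 ± 0.22 in log2 units. Its relative Grhl3 went the other way, from 19.9 to 1.53 CPM. Snai3, a Snail family gene, rose from 1.24 to 7.81 CPM in total RNA. The other 2 that rose were Twist1, which promotes the transition, and Ovol2, which opposes it, with log2 fold changes of 1.95 and 1.46.

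Mesenchymal effector genes moved both ways, with 6 higher and 4 lower of 12 tested in total RNA and 6 and 3 in RPF. Fn1, the matrix protein fibronectin, fell from 2381 to 484 CPM in total RNA, a change of -2.29 ± 0.06 in log2 units (adjusted p 2.61e-20 by limma). Timp1 and Sparc were among the others that fell in total RNA. Acta2 and Tagln, genes of the contractile actin cytoskeleton, rose from 2.72 to 51.7 CPM and from 9.19 to 185 CPM, and the matrix protease gene Mmp2 from 13.6 to 79.6 CPM. ESC total RNA replicate 2 held 71 of the Acta2 counts, against 11 and 16 in the other ESC total RNA libraries, and 206 of the Tagln counts, against 41 and 84. Without it the ESC means were 1.09 and 5.10 CPM and the log2 fold changes 5.61 and 5.35, against 4.82 and 4.73 with it. The summed level of the 15 genes on the list, which Fn1 dominates, was 3415 to 3560 CPM in ESC total RNA and 2096 to 2264 CPM in EpiLC total RNA. None of the genes on these 6 lists was called for TE.

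**Figure D5:**
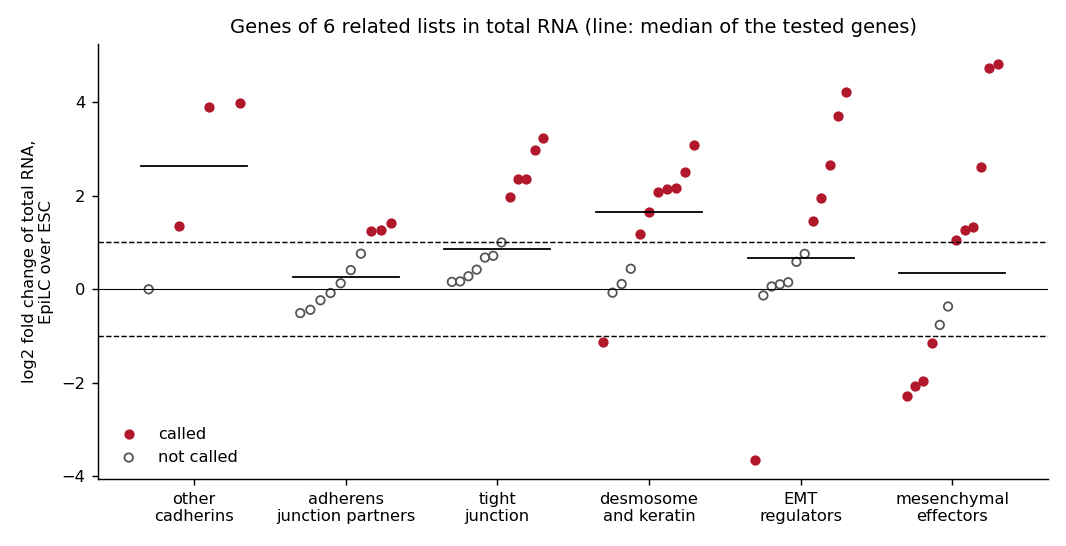
Log2 fold change of total RNA (EpiLC over ESC) for each tested gene of 6 related lists; filled points were called, open points were not, short lines are list medians and dashed lines mark the fold limit of 1. The desmosome and keratin list has its median at 1.64 and 1 called gene below the lower line, whereas mesenchymal effectors have called genes on both sides.

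Markers of other cell types that could carry such genes were summed per library. The 9 fibroblast markers summed to 11.1 to 13.7 CPM in ESC and 16.02 to 17.7 CPM in EpiLC total RNA, with Postn and Lum at 0 in all total RNA libraries. The 4 tested ones gave 3 higher and 1 lower. The 8 primitive endoderm markers summed to 5.32 to 6.83 and 15.1 to 22.3 CPM, with Afp at 0 in all libraries and 1 of 3 tested higher, Dab2. The 7 trophoblast markers summed to 2.19 to 3.34 and 6.53 to 9.61 CPM, with Elf5 and Tpbpa at 0 in all libraries and 1 tested, Krt7, higher. The 7 mesoderm markers summed to 9.69 to 11.7 and 5.27 to 5.77 CPM, with both tested genes, Eomes and Gsc, lower and none at 0 throughout. The 8 neural markers summed to 83.5 to 99.9 and 71.3 to 80.3 CPM, with 3 of 5 tested higher and Pax3 at 0 in ESC libraries. Dab2, Krt7 and Gsc reached the level for testing in libraries of one cell type only and had to differ. In RPF the fibroblast markers summed to 19.7 to 24.5 CPM in ESCs and 40.9 to 46.5 CPM in EpiLCs. The RPF sums of primitive endoderm markers were 10.4 to 11.6 and 31.0 to 32.8 CPM, and of trophoblast markers 2.39 to 5.38 and 11.4 to 17.1 CPM. Those of mesoderm markers were 26.1 to 31.8 and 9.57 to 13.1 CPM, and of neural markers 124 to 136 and 108 to 135 CPM. The part of these cells in the results was not tested.

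The genes whose levels followed a member most closely were found by the Euclidean distance between centred log2 CPM profiles over the 12 libraries. For Cdh1 they were Bcat2, Tomm34 and Hspa5, at distances of 0.249, 0.311 and 0.317. For Vim they were Mtfr2, Mrps2 and Calu (0.391, 0.426 and 0.439), and for Cdh2 they included Fam3c and Kif3a (0.733 and 0.745). The larger distances of Cdh2 go with its low counts, and the profiles hold both the assay and the cell type difference.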

How the data were processed

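The authors deposited raw counts per gene for 12 libraries in a single table. Per the file headers, the labels and the study's methods, adapters were trimmed with cutadapt 1.14, reads were mapped to mm10 with STAR 2.5.3a and Gencode annotation, only reads that mapped to a single position were retained, and featureCounts 1.5.3 counted read 5′ ends on the sense strand over coding sequence without its first 45 nt. The treatment of PCR duplicates is not given in the sources used here. Counted length per gene stands beside the counts.

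From these counts, genes with at least 3 CPM in at least 3 libraries (11750) were scaled with TMM factors (edgeR 4.0.16) and fitted with voom and limma 3.58.1 in R 4.3.3, with 4 group levels, all 12 libraries and no replicate block. The study's methods name limma, the filter and the interaction term. Voom and TMM were added to suit count data. Benjamini-Hochberg adjustment ran over all tested genes. CPM values are scaled by TMM, and error terms are SD of libraries or SE of the fit. Shares were compared by exact permutation in Python 3.11.15 with scipy 1.17.1, and intervals of pooled counts are exact (Clopper-Pearson). The voom and edgeR fits were tested on simulated data, using counts drawn around the measured means and depths with known changes in either both assays or RPF alone. Same-group libraries differed by 2.46 to 7.19 in chi-square per degree of freedom, so none was counted as a duplicate. Depth ran from 2681439 to 14655015 counts, so that 3 counts equal 1.12 to 0.205 CPM. DESeq2 1.42.0 and edgeR's quasi-likelihood test were alternatives.

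The 10 members and all gene lists were chosen with earlier results of these data known. From each list, up to 4 called genes with the largest change in total RNA were named. For Cdh1, Cdh2 and Vim, the 3 genes with the nearest profiles were sought. Some genes that meet these rules are not reported here. Dsg2, Twist1, Ovol2, Timp1 and Sparc complete counts or were singled out after their values were seen.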

Additional observations from a re-analysis of the deposited data

How the results depend on the processing

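The counts of called members (4 in total RNA, 4 in RPF and 0 in TE) moved by more than 1.5 times under 1 alternative only, the adjusted p without a fold limit, which gave 8 in total RNA and 7 in RPF, since it adds the small changes of Cdh1, Cdh2, Ctnna1 and Vim (not Cdh2 in RPF). The quasi-likelihood test of edgeR, DESeq2, limma-trend, other scalings, filters and the GC correction gave 3 to 5 calls in total RNA, 3 to 4 in RPF and 0 in TE, with 3 where 10 counts were required in every library, which drops Zeb1, and 5 where every gene with a count was tested, which adds Zeb2. Deviations of ESC and EpiLC libraries with a shared number correlated at -0.0127 to 0.0329 in total RNA and 0.0194 to 0.0401 in RPF, and those of RPF and total RNA within a cell type at -0.182 to 0.163, so the numbers were not taken to pair libraries. In RPF each library correlated best with its own number across cell types, a hint from the data only. With the replicate block the counts of calls were 4, 4 and 0. Leaving out a library gave 4 calls in total RNA, 4 in RPF and 0 in TE in every fit, and the difference in the Cdh1 share was -8.91 to -7.68 percentage points in total RNA and -9.95 to -9.24 in RPF.

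In the fits of the tested members, direction turned only where a change was near 0. The RPF change of Cdh2 ran from -0.0413 (without ESC RPF replicate 2) to 0.146 over the fits that left out a library. The TE change of Cdh1 ran from -0.00758 (without EpiLC total RNA replicate 3) to 0.124. That of Zeb1 ran from -0.273 (EpiLC RPF replicate 1 left out) to 0.299, and was also below 0 without ESC RPF replicate 2 or ESC total RNA replicate 3, and at -0.0896 with limma-trend. The adjusted p of the Cldn6 TE change was 0.0295 with DESeq2 and 0.0444 with the replicate block, and that of Epcam 0.0443 without ESC total RNA replicate 1, each within the fold limit. Over the alternatives it ran from 0.0295 to 0.457 for Cldn6 and from 0.0443 to 0.362 for Epcam. Chosen after seeing the data, leaving out ESC RPF replicate 3 moved the Snai1 RPF ratio of EpiLCs to ESCs from 0.604 to 1.16 and its RPF over total RNA in ESCs from 7.56 to 3.95. Depth limits Zeb2, Snai1 and the EpiLC RPF values of Zeb1, and the 3 libraries per group limit the tests of shares.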
